A study of Homo sapiens with 12 samples.

Results

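Taurolidine is a derivative of the amino acid taurine that is used against microbes and that also kills tumour cells in culture. Its effect on messenger RNA was followed in A-204, an established human cell line labelled as rhabdomyosarcoma, on 4 of the study's 12 arrays, chosen by their labels for line and agent. The arrays with taurolidine were 1 of cells given taurolidine alone (250 µmol/l) and 1 of cells given taurolidine (250 µmol/l) with TRAIL (50 ng/ml). The arrays without it were 1 of untreated cells and 1 of cells given TRAIL alone (50 ng/ml), and the exposure lasted 6 h. TRAIL is a death ligand of the tumour necrosis factor family. The leiomyosarcoma line SK-LMS-1 and the epithelioid sarcoma line VA-ES-BJ, with the same treatments on 4 arrays each, served as the comparison. No treatment was repeated within a line, so the 2 arrays of an arm differ in TRAIL, and each line is 1 cell line and not a set of tumours. Nothing in the labels says that the arrays came from separate cultures, and the p-values therefore reflect the spread of these arrays alone, which may in part be technical.

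The values are MAS5 signals, the authors' linear intensity of a probe set, with a table median of 137. Pairs of signals below are given in 1 order, the array without TRAIL before the array with TRAIL. A change is the mean log2 signal of the 2 arrays with taurolidine minus that of the 2 without it, ± the standard error of the fit, and a gene was called when its p-value adjusted over 14221 genes was under 0.05.

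The muscle label of A-204 was set against the defining genes of skeletal muscle. MYOD1, the master regulator of the muscle lineage, had signals of 21.3 and 39.0 with taurolidine, against 28.6 and 69.3 without it. MYOG, the regulator of muscle differentiation, had 15.2 and 62.4 with taurolidine, against 10.2 and 11.5 without it. DES, the muscle intermediate filament, had 167 and 116 with taurolidine, against 132 and 201 without it. MYOD1 and MYOG lay under the table median on all 4 arrays and DES close to it, and 10 of the 19 skeletal muscle genes with a probe set were at or below that median on every A-204 array. Of the 3 that stood above 2 times the median in untreated cells, TNNT1, a slow muscle troponin, had 9068 and 9599 with taurolidine, against 5677 and 5882 without it. The summed signal of the 19 genes was 10647 and 11892 with taurolidine, against 7685 and 7783 without it. TNNT1 made up most of each sum and of its rise. The remaining genes together were lower with taurolidine without TRAIL and higher with TRAIL. TNNT1 changed by 0.69 in A-204, and VA-ES-BJ had 0.43 and SK-LMS-1 0.59. Of the 6 muscle genes tested 1 was called higher and none lower, with a median change of -0.13. The part of the rise in the sum in the results below was not tested. A-204 is elsewhere used as a model of malignant rhabdoid tumour, a cancer that lacks SMARCB1, a core subunit of the SWI/SNF chromatin remodeller. SMARCB1 had signals of 1475 and 1018 with taurolidine, against 1235 and 1090.2 without it in A-204, between those of SK-LMS-1 (3788 and 4146 with taurolidine, against 3530.1 and 3795 without it) and VA-ES-BJ (262 and 76.9 with taurolidine, against 152 and 21.9 without it). A probe set reads only a short stretch of a transcript, so these signals do not show whether a line makes the protein. The line is called A-204 below, without a tumour type.

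Cells that meet a toxic agent switch on a small set of immediate-early genes first. Their products, such as the AP-1 subunits FOS and FOSB and the EGR and NR4A factors, need no new protein to be induced, and many of their transcripts are short-lived. Another arm of the stress response acts through the transcription factor ATF4 on its target genes. Heat shock factors act on chaperones, and p53 acts on growth arrest and death. Many zinc finger factors and signalling inhibitors, such as the dual-specificity phosphatases, also have transcripts with fast turnover.

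FOS and FOSB are shown with the 150 bases before their start sites because they led the AP-1 genes that rose and share a motif at a like distance from the start. CCN2 is shown because its rise was larger in A-204 than in either other line. The sequences are those of RefSeq on GRCh38.p14, on the strand of the gene, 5′ to 3′. Capitals mark TGACGT, the core of the cyclic AMP response element, in FOS and FOSB, and GGAATG, the motif of TEAD factors, in CCN2. The GGAATG motif was chosen after the sequences had been seen.
FOS, chr14:75278678-75278827, + strand: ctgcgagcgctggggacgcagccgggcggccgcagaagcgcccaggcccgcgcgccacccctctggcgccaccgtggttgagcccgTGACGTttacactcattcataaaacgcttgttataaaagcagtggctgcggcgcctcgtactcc
FOSB, chr19:45467846-45467995, + strand: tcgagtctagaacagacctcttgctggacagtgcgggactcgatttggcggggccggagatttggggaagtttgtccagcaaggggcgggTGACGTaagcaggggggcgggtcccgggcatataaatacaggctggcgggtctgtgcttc
CCN2, chr6:131951373-131951522, - strand: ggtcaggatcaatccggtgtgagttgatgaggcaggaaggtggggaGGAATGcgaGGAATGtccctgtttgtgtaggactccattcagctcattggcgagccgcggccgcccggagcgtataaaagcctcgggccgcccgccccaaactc
TGACGT, searched on both strands, lay at -64 to -59 in FOS and at -60 to -55 in FOSB, counted from the start site, and 7.98% of 35116 RefSeq windows of 300 bases hold it. GGAATG lay at -104 to -99 and at -95 to -90 in CCN2, with a further copy at -169 to -164 outside the stretch shown, and 14% of windows hold it. The window of GDF15, another gene with a larger rise in A-204, was also searched and is not printed. It held GGAATG at -230 to -225. TGANTCA, the AP-1 motif, was also searched and was not found in the windows of FOS, FOSB and CCN2, against 7.71% of all windows. A match is a run of letters and not a measured binding site.

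Taurolidine changed the signal of a large share of genes in A-204, and falls were both more frequent and deeper than rises. Of 14221 genes, 4648 were called (32.7%), 1844 higher (13.0%) and 2804 lower (19.7%), and 6076 had an unadjusted p under 0.05. At least a 2-fold change was seen in 188 of the genes called higher and 1152 of those called lower, and at least a 4-fold change in 35 and 179. In SK-LMS-1 1017 genes were called higher (7.15%) and 1605 lower (11.3%), and in VA-ES-BJ 884 (6.22%) and 1501 (10.6%). The response of A-204 had an SD over genes of 0.691 on the log2 scale, against 0.599 for SK-LMS-1 and 0.592 for VA-ES-BJ, as a description without a test. When the 4 A-204 arrays were fitted alone, 2492 genes were called, 747 higher and 1745 lower.

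The changes in A-204 were seen with taurolidine alone and with taurolidine plus TRAIL. The difference between taurolidine alone and untreated cells and the difference between taurolidine with TRAIL and TRAIL alone share no array, and across the 14221 genes they correlated at 0.585, against 0.478 for SK-LMS-1 and 0.488 for VA-ES-BJ. The A-204 response over both pairs of arrays correlated at 0.534 with that of SK-LMS-1 and at 0.57 with that of VA-ES-BJ. Genes are not independent replicates, so these are descriptions. In each of the 4648 called genes both differences had 1 sign and the arms did not overlap. The calls were made on the same A-204 arrays, so this is no separate evidence for them. Arms that did not overlap were found for 69.3% of all genes tested. The VA-ES-BJ arrays gave 60.1% by that count and the SK-LMS-1 arrays 63.4%. The 313 genes called higher in all 3 lines were 17% of those called higher in A-204, 30.8% of those in SK-LMS-1 and 35.4% of those in VA-ES-BJ. The 887 genes called lower in all 3 lines were 31.6%, 55.3% and 59.1% of the genes called lower in the same lines.

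Some array-wide measures moved with taurolidine as well. The signal of 27 probe sets for poly-A spikes, control RNAs that join a sample ahead of the labelling reaction, was higher by 0.73 on the log2 scale with taurolidine in A-204 (0.73 without TRAIL and 0.72 with it), by 0.52 in SK-LMS-1 and by 0.54 in VA-ES-BJ. The hybridisation controls differed by -0.06 in A-204 (-0.22 without TRAIL and 0.099 with it). In SK-LMS-1 they differed by 0.21 (0.15 and 0.28) and in VA-ES-BJ by -0.22 (0.31 and -0.74). The 3′ over 5′ ratio, which tracks RNA integrity, differed in A-204 by 0.01 for GAPDH and 0.02 for ACTB. MAS5 sets each array to 1 mean, so the values do not show a change in total messenger RNA per cell. Scaling the arrays to the spikes moved the median change of all genes to -0.69 and left 73 genes higher and 7362 lower, so a rise below that size is a rise relative to other transcripts on the array. The part of the labelling in these changes was not tested.

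RNA45SN5, the gene of the ribosomal RNA precursor, had the largest rise in A-204. Its signal was 23948 and 29661 with taurolidine, against 386 and 476 without it. The taurolidine arrays stood far above the others, with a change of 5.92 ± 0.34 (adjusted p = 6.0e-05), against 4.32 for SK-LMS-1 and 5.82 for VA-ES-BJ, and its other probe set changed by 4.51 in A-204. RNA45SN5 belongs to a repeated gene family whose copies the probe sets cannot tell apart.

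Immediate-early and AP-1 genes held many of the largest rises, with 15 of 29 tested members called higher (51.7%) and 4 lower (13.8%). Over all genes 13.0% were called higher and 19.7% lower. The median change was 1.03 against 0.02 over all genes tested (0.30 against -0.69 with the spike scaling). For SK-LMS-1 the median of this list was 1.15, and for VA-ES-BJ it was 0.58. FOS, an AP-1 subunit, had signals of 6106 and 4939 with taurolidine, against 325 and 486 without it. Both taurolidine arrays were far brighter than either array without it, a change of 3.75 ± 0.29 (adjusted p = 0.00015). In SK-LMS-1 FOS had 20857 and 21662 with taurolidine, against 108 and 201 without it, and in VA-ES-BJ 2692 and 3289 with taurolidine, against 148 and 179 without it. Its rise was smaller in A-204 than in SK-LMS-1 (a difference of -3.31 ± 0.42, adjusted p = 0.014), and did not pass against VA-ES-BJ (-0.35 ± 0.42, adjusted p = 0.73).

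FOSB, its close relative, had signals of 2369.8 and 1428 with taurolidine, against 185 and 243 without it in A-204, while SK-LMS-1 had 5891 and 5924 with taurolidine, against 155 and 83.2 without it and VA-ES-BJ 2642 and 2742 with taurolidine, against 35.7 and 18.4 without it. The arms did not overlap in any line, and the rise was smallest in A-204. It came to 3.05 ± 0.35 (adjusted p = 0.00064) there, 5.55 for SK-LMS-1 and 6.16 for VA-ES-BJ, with adjusted p = 0.049 and 0.025 for the 2 differences. That difference from both lines was lost without the A-204 untreated, TRAIL or taurolidine plus TRAIL array, and passed in 5 of 14 alternative analyses.

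EGR3, a zinc finger factor of the early growth response family, had signals of 1888 and 2276 with taurolidine, against 259 and 242 without it. Its rise of 2.99 ± 0.16 was close in size to 2.96 for SK-LMS-1 and 3.13 for VA-ES-BJ. NR4A2, an orphan nuclear receptor, had 2975 and 2965 with taurolidine, against 439 and 462 without it, a change of 2.69 ± 0.15 against 3.29 and 2.53 in the same lines. ATF3, a stress-induced repressor of the ATF family, had 3922 and 6344 with taurolidine, against 845 and 809.9 without it, a rise of 2.58 ± 0.21 (adjusted p = 0.00016) against 4.54 for SK-LMS-1 and 3.10 for VA-ES-BJ, where the difference from SK-LMS-1 passed (adjusted p = 0.025). The other probe sets gave 2.78 and 2.25 for NR4A2 and 1.83 and 1.82 for ATF3.

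SNAI1, a repressor of epithelial genes, showed another pattern. It had signals of 273 and 343 with taurolidine, against 23.3 and 32.8 without it in A-204, while SK-LMS-1 had 32.2 and 29.2 with taurolidine, against 36.9 and 34.4 without it and VA-ES-BJ 226 and 309 with taurolidine, against 51.3 and 163 without it. In A-204 it passed the table median on the taurolidine arrays alone and in SK-LMS-1 on no array. The change was 3.01 ± 0.41 (adjusted p = 0.0015) in A-204, and the difference from SK-LMS-1 passed (adjusted p = 0.044) while that from VA-ES-BJ did not (adjusted p = 0.19). With signals this low without taurolidine, the size of the change depends on the added constant.

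MED26, a Mediator subunit that recruits elongation factors, had signals of 125 and 128 with taurolidine, against 2305 and 2342 without it. The arms were far apart, and MED26 was 16.9-fold lower (adjusted p = 7.5e-05), against changes of -3.01 for SK-LMS-1 and -4.32 for VA-ES-BJ. Of 29 Mediator subunits 13 were called lower (44.8%) and 2 higher (6.9%), against 19.7% and 13.0% of all genes, with a median of -0.38. MED17, a core subunit, changed by -1.83 ± 0.10, but its other probe sets gave -0.28 and 0.86, and their mean, at -0.42, was not called (adjusted p = 0.091). CCNT1 and CCNT2, the cyclins of the elongation kinase P-TEFb, changed by -1.30 ± 0.08 and -1.05 ± 0.12, and 6 of 20 elongation genes were called lower (30.0%) and 3 higher (15.0%), with a median of -0.45. With equal array medians 5 were lower and 1 higher.

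Zinc finger genes with a ZNF symbol, many of which encode DNA-binding repressors, formed the largest list. Of 409 tested, 221 were called lower (54.0%) and 5 higher (1.22%), against 19.7% and 13.0% of all genes. SK-LMS-1 had a median change of -0.55 and VA-ES-BJ of -0.64, and A-204 had a median of -0.77. The median lay 0.69 to 0.83 below that of all genes in all 15 alternatives, and 159 to 337 members were called lower. ZNF584 had signals of 26.1 and 22.6 with taurolidine, against 426 and 785 without it, all but gone with taurolidine. Its change was -4.03 ± 0.51 (adjusted p = 0.0010) in A-204, -1.13 for SK-LMS-1 and -2.49 for VA-ES-BJ, and neither difference between lines passed. Members of this family are alike in sequence, and a probe set may read a relative. Of 41 KLHL and KCTD genes, which encode adaptors of cullin ubiquitin ligases, 17 were called lower (41.5%) and 1 higher (2.4%), with a median of -0.43, and 8 and 0 when the A-204 arrays were fitted alone. KCTD6 changed by -1.77 ± 0.13. KLHL22, another member, changed by -0.83 ± 0.13 (adjusted p = 0.0025), against 0.15 for SK-LMS-1 and 0.12 for VA-ES-BJ, apart in 6 of 14 of the alternative analyses described below and not without the untreated, TRAIL or taurolidine plus TRAIL array.

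Of 14 inhibitors of MAP kinase signalling 7 were called lower (50.0%) and none higher, against 19.7% and 13.0% of all genes, with a median of -0.72. DUSP16, a phosphatase of the stress kinases JNK and p38, had signals of 26.6 and 26.6 with taurolidine, against 693 and 656 without it, the largest fall of A-204 at -4.16 ± 0.09 (adjusted p = 1.1e-06). The taurolidine arrays lay well under the table median. The fall was -3.48 for SK-LMS-1 and -1.72 for VA-ES-BJ. Its other probe sets gave -1.51 and -1.09. Its difference from both lines passed in 3 of 14 alternative analyses, and in none that left out 1 of the A-204 arrays. DUSP7, a phosphatase of ERK, changed by -2.05 ± 0.11 and SPRED2, an inhibitor of RAS signalling, by -2.07 ± 0.20.

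Further large falls were those of CDC25A, the phosphatase that activates cyclin-dependent kinases, GPR39, a zinc-sensing receptor, and CCDC12, a spliceosome protein. CCDC12 had signals of 278 and 228 with taurolidine, against 3339 and 3692 without it, a change of -3.74 ± 0.15 (adjusted p = 3.3e-05). GPR39 had 52.8 and 9.09 with taurolidine, against 457 and 482 without it, a change of -3.71 ± 0.46 (adjusted p = 0.00094) that did not pass as a difference from SK-LMS-1 (-1.31, adjusted p = 0.11) or VA-ES-BJ (-1.17, adjusted p = 0.082). CDC25A had 135 and 24.9 with taurolidine, against 818 and 758 without it, where the 2 taurolidine arrays differed from each other by a wide margin. Its change of -3.44 ± 1.0 (adjusted p = 0.033) was not called without the untreated array (adjusted p = 0.12), the taurolidine plus TRAIL array (0.17), the TRAIL array (0.10) or the filter (0.054), nor with the A-204 arrays alone (0.058). WDCP, a gene of little known function, had 79.7 and 19.9 with taurolidine, against 794 and 814 without it, a change of -3.92 ± 0.40, and KIF7, a kinesin of the cilium in Hedgehog signalling, had 104 and 23.2 with taurolidine, against 889 and 955 without it, a change of -3.87 ± 0.54. Among the large rises, the antisense RNA ZNF143-AS1 had 390.3 and 343 with taurolidine, against 24.1 and 101 without it, a change of 2.57 ± 0.69 (adjusted p = 0.024) that was not called with the A-204 arrays alone (adjusted p = 0.068) nor without the untreated (0.14), taurolidine (0.089) or taurolidine plus TRAIL array (0.079).

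**Figure D1:**
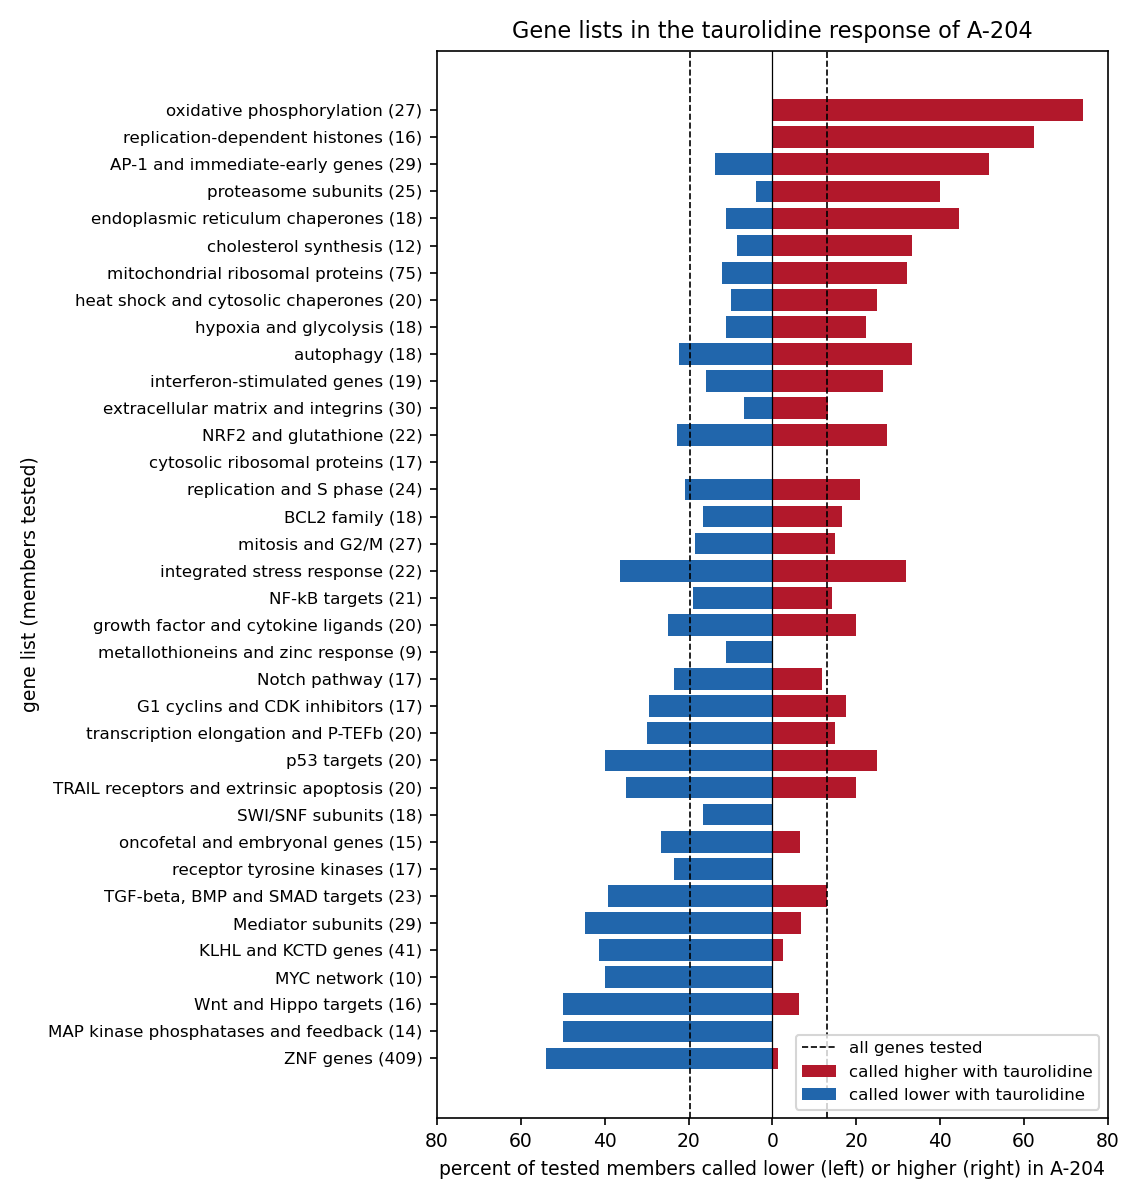
Gene lists in the taurolidine response of A-204. Each row is a list with the number of members tested, the bars give the percent of members called higher (right, red) and lower (left, blue), and the dashed lines mark 13.0% higher and 19.7% lower over all 14221 genes; lists are ordered by the share higher minus the share lower, and rises of oxidative phosphorylation and proteasome genes turn to medians of -0.21 and -0.35 with the spike scaling.

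The question of which changes belong to A-204 was put to a test of the difference between lines. The A-204 response differed from that of SK-LMS-1 in 297 genes (2.09%) and from that of VA-ES-BJ in 422 (2.97%), with a lower value in A-204 in 228 (1.6%) and 303 (2.13%) of them and a higher one in 69 (0.485%) and 119 (0.837%). In 121 genes (0.851%) it differed from both in 1 direction. Of these, 40 (0.281%) had no call and a change under 0.5 in both other lines (32 falls and 8 rises in A-204). A further 25 (0.176%) were called in the opposite direction in at least 1 line (17 falls and 8 rises in A-204), and 12 (0.0844%) changed less in A-204 than elsewhere. The remaining 44 (0.309%) fell or rose in A-204 beyond both other lines (42 falls and 2 rises) and were counted as weaker elsewhere. They include changes the other way that were not called, as in WNK4 (-2.19 in A-204, 0.86 for SK-LMS-1 and 0.78 for VA-ES-BJ). A call in A-204 without a call elsewhere was far more frequent than a difference. Of 992 genes called higher and 1131 called lower in A-204 with no call in the other lines, 9 and 36 differed from both.

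How firmly a gene is set apart varied. Of the 121 genes, 7 were apart in each of 14 alternative analyses, 17 in at least 13 and 43 in at least 7, and 13 in fewer than 4. Without the A-204 untreated array 28 genes were apart, without taurolidine plus TRAIL 54, without TRAIL 22 and without taurolidine 228. Beside each gene below, the number of the 14 analyses in which it stayed apart is given.

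**Figure D2:**
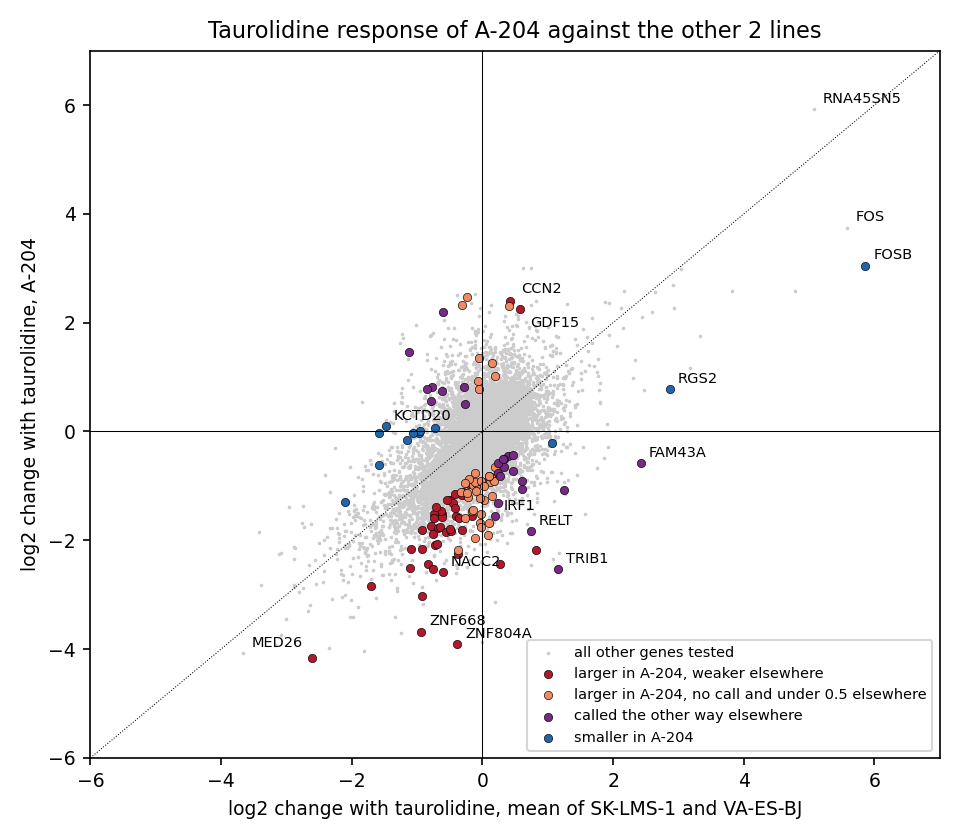
Taurolidine response of A-204 against the other lines. Each point is 1 of 14221 genes, with its log2 change in A-204 (vertical) against the mean of its changes in SK-LMS-1 and VA-ES-BJ (horizontal), and the dotted line marks equal change. Coloured points are the 121 genes that differed from both lines, most of them below the line, and TRIB1 (-2.54 in A-204) and FAM43A (-0.58) lie on the far side of 0 from the other lines.

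Genes with opposite responses came first. TRIB1, a pseudokinase that steers transcription factors of the C/EBP family to degradation, had signals of 2286 and 2805 with taurolidine, against 14051 and 15458 without it in A-204. In SK-LMS-1 it had 6982 and 6793 with taurolidine, against 1479 and 1598 without it, and in VA-ES-BJ 836 and 770.2 with taurolidine, against 684 and 749 without it. TRIB1 thus fell in A-204, where it was brightest without taurolidine, rose in SK-LMS-1 and was not called in VA-ES-BJ. The changes were -2.54 ± 0.12 (adjusted p = 5.1e-05), 2.15 ± 0.12 (adjusted p = 8.8e-05) and 0.16 ± 0.12 (adjusted p = 0.42) in that order of lines, and the differences were -4.69 ± 0.17 from SK-LMS-1 (adjusted p = 8.6e-05) and -2.70 ± 0.17 from VA-ES-BJ (adjusted p = 0.0019). It was apart in 14 of 14 analyses, and its dimmer probe set changed by -2.51, 1.47 and -0.38. CEBPB, which encodes a C/EBP factor, had signals of 8298 and 9488 with taurolidine, against 13369 and 15978 without it in A-204 and changed by -0.72 ± 0.13 (adjusted p = 0.0042) there, 0.70 for SK-LMS-1 and 0.22 for VA-ES-BJ. It was apart in 5 of 14 analyses, and without any 1 of the A-204 arrays in none.

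IRF1, an interferon-induced transcription factor, had signals of 1173 and 1169.7 with taurolidine, against 3459 and 3495 without it in A-204, while SK-LMS-1 had 1558 and 1387 with taurolidine, against 985 and 924 without it and VA-ES-BJ 1358 and 1152 with taurolidine, against 1434 and 1481 without it. The A-204 arms were clearly separate, and those of SK-LMS-1 were separate in the other direction. The changes were -1.56 ± 0.11 (adjusted p = 9.6e-05), 0.62 ± 0.11 (adjusted p = 0.0073) and -0.22 ± 0.11 (adjusted p = 0.21), apart in 14 of 14 analyses, and the other probe set gave -0.61, 0.86 and 0.55.

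RELT, a receptor of the tumour necrosis factor family, had 79.1 and 88.9 with taurolidine, against 282 and 384 without it in A-204, while SK-LMS-1 had 844 and 838 with taurolidine, against 636 and 567 without it and VA-ES-BJ 973 and 979 with taurolidine, against 548 and 427 without it. It fell below the table median in A-204 and rose in VA-ES-BJ, with changes of -1.83 ± 0.17 (adjusted p = 0.00027) and 0.99 ± 0.17 (adjusted p = 0.0068), and it did not pass in SK-LMS-1 (0.48, adjusted p = 0.088). RELT was apart in 14 of 14 analyses.

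SGK1, a kinase induced by serum and glucocorticoids, had 9457 and 10749 with taurolidine, against 17616 and 20183 without it in A-204, while SK-LMS-1 had 23258 and 22636 with taurolidine, against 13516 and 14278 without it and VA-ES-BJ 2286 and 2476 with taurolidine, against 1741 and 1627 without it. It fell by a modest amount in A-204 and rose in both other lines, at -0.90 ± 0.11 (adjusted p = 0.00085), 0.72 and 0.50, and it was apart in 13 of 14 analyses, all but the spike scaling. THBD, the thrombin receptor thrombomodulin, had 238 and 252 with taurolidine, against 563 and 485 without it in A-204 and changed by -1.06 ± 0.11 (adjusted p = 0.00040) there, 0.57 for SK-LMS-1 and 0.65 for VA-ES-BJ. Its other probe sets disagreed in SK-LMS-1, at -2.10 and 0.68, and it was apart in all but the analysis that averages probe sets. FAM43A, a gene of little known function, had 3012 and 3517 with taurolidine, against 4661 and 5109.8 without it in A-204, while SK-LMS-1 had 1958 and 2197 with taurolidine, against 174 and 238 without it and VA-ES-BJ 296 and 310.1 with taurolidine, against 98.2 and 90.4 without it. It rose in both other lines from low signals, by 3.28 and 1.57, and changed by -0.58 ± 0.16 (adjusted p = 0.024) in A-204, a fall that was not called in 5 of 15 alternatives while the difference between lines passed in 13 of 14.

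CCNE1, the cyclin that drives entry into S phase, had 579 and 557 with taurolidine, against 1314 and 1565 without it in A-204, while SK-LMS-1 had 329 and 356 with taurolidine, against 241 and 249 without it and VA-ES-BJ 2251 and 2329.5 with taurolidine, against 2242 and 2277 without it. The A-204 arms did not overlap, the SK-LMS-1 arms lay apart the other way, and the 4 arrays of VA-ES-BJ lay close together. The change was -1.32 ± 0.10 (adjusted p = 0.00014) in A-204, 0.46 ± 0.10 (adjusted p = 0.020) for SK-LMS-1 and 0.02 for VA-ES-BJ, apart in 13 of 14 analyses, all but the spike scaling.

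**Figure D3:**
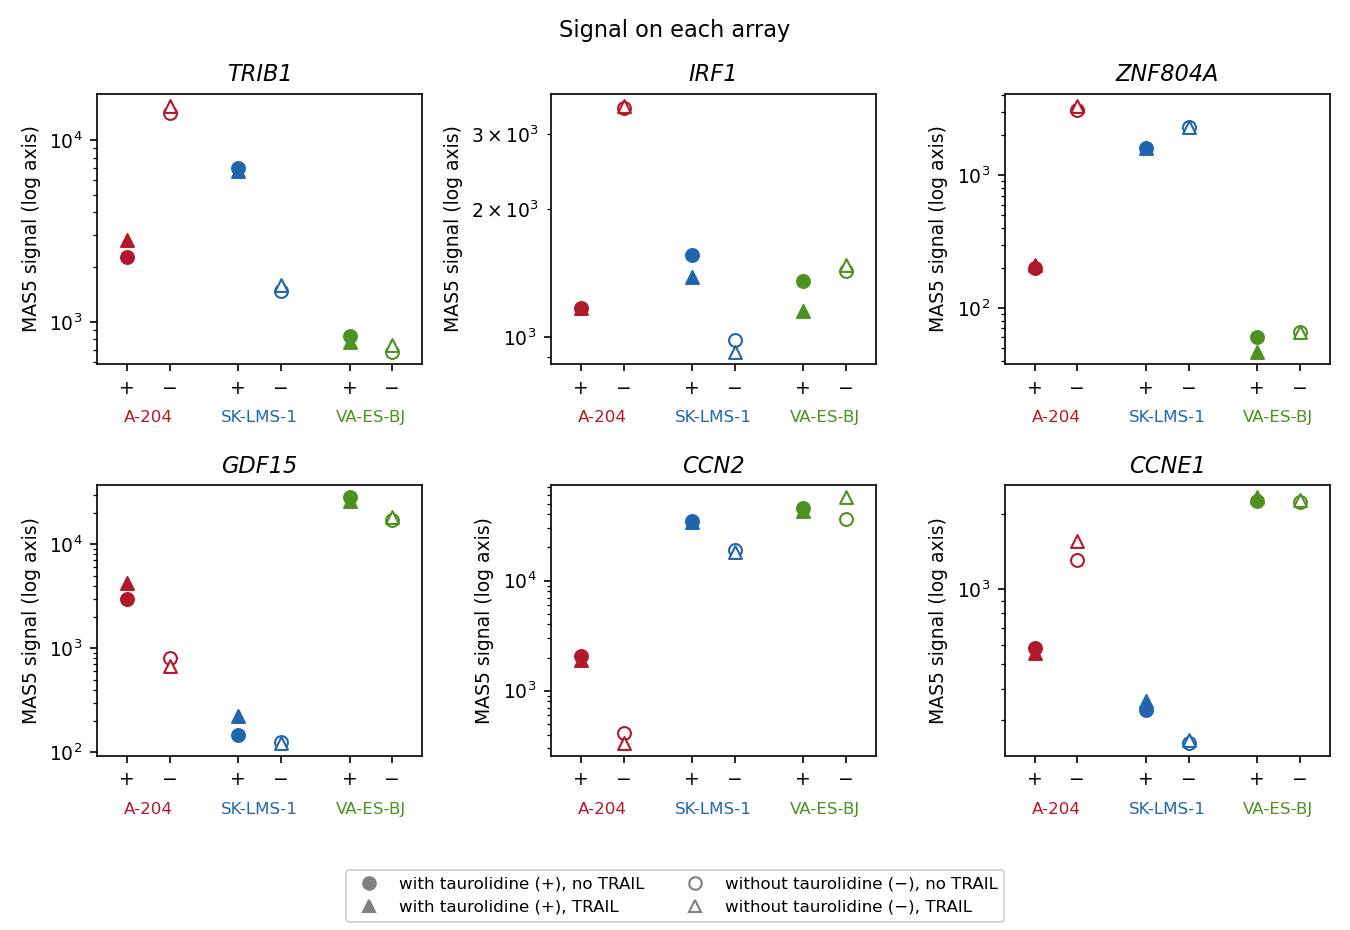
Signal of 6 genes on each of the 12 arrays, on a log axis. Filled symbols are arrays with taurolidine (+), open symbols those without it (−), circles arrays without TRAIL and triangles arrays with TRAIL; in A-204 the filled and open symbols are apart for each gene, with TRIB1 at 2286 and 2805 with taurolidine and 14051 and 15458 without it.

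Deeper falls, counted as falls in A-204 beyond both other lines with no opposite call there, made up most of the genes set apart. They were 74 in all, of which 66 were above 2 times the table median on both A-204 arrays without taurolidine. Counted over all 74, 65 were above that level in both other lines without taurolidine. ZNF804A, a zinc finger gene, had signals of 198 and 210.1 with taurolidine, against 3121 and 3335 without it in A-204, while SK-LMS-1 had 1607 and 1612 with taurolidine, against 2314 and 2304 without it and VA-ES-BJ 59.8 and 46.6 with taurolidine, against 65.4 and 65.2 without it. It was 15-fold lower in A-204 (-3.91 ± 0.11, adjusted p = 5.0e-06), fell by a smaller amount in SK-LMS-1 (-0.52 ± 0.11, adjusted p = 0.016) from a like signal, and lay below the table median on every array of VA-ES-BJ. ZNF804A was apart in 14 of 14 analyses. ZNF668, a further member of the family, had 36.4 and 49.7 with taurolidine, against 831 and 564 without it in A-204, while SK-LMS-1 had 276 and 205 with taurolidine, against 389 and 484 without it and VA-ES-BJ 222 and 281 with taurolidine, against 535 and 527 without it, with changes of -3.68 ± 0.24 (adjusted p = 8.3e-05), -0.84 and -1.05, also apart in 14.

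NACC2, a BTB domain repressor, had 1018 and 879.8 with taurolidine, against 5663 and 5762 without it in A-204, while SK-LMS-1 had 2138 and 1962 with taurolidine, against 2652 and 2641 without it and VA-ES-BJ 1832 and 1994 with taurolidine, against 3443 and 3478 without it. It fell in each line, and the fall of -2.58 ± 0.10 (adjusted p = 3.2e-05) in A-204 was the deepest, against -0.37 and -0.85, in 14 of 14 analyses. Its other probe set gave -0.80, 0.18 and 0.21.

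FAM20C, the kinase that phosphorylates secreted proteins, had 95.5 and 102 with taurolidine, against 327 and 359 without it in A-204, while SK-LMS-1 had 847 and 813 with taurolidine, against 783 and 775 without it and VA-ES-BJ 1942 and 1998 with taurolidine, against 1799.6 and 1812 without it. The 2 other lines changed little, at 0.09 and 0.12, while A-204 changed by -1.68 ± 0.08 (adjusted p = 5.1e-05), apart in 13 of 14. RAB30, a small GTPase of the Golgi, had 50.9 and 63.1 with taurolidine, against 345 and 287 without it in A-204 and changed by -2.25 ± 0.13 (adjusted p = 6.7e-05), against -0.26 and -0.50, apart in 13 of 14, and its dimmer probe sets gave -1.24, -1.14, -0.15 and -0.24. MBP, the gene of myelin basic protein, had 436 and 320.2 with taurolidine, against 1747 and 1278 without it in A-204 and changed by -1.97 ± 0.21 (adjusted p = 0.00052), against -0.03 and -0.19. Its other probe sets gave -1.33, -2.59, -3.95 and 0.10, and it was apart in 6 of 14 analyses, not without the untreated, TRAIL or taurolidine plus TRAIL array.

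TP53INP1, a p53-induced regulator of death and autophagy, had 24.5 and 26.0 with taurolidine, against 148 and 166 without it in A-204, near the table median without taurolidine, while SK-LMS-1 had 416 and 371 with taurolidine, against 477 and 482 without it and VA-ES-BJ 1746 and 1369.8 with taurolidine, against 2443 and 1892 without it. Its change of -2.19 ± 0.16 (adjusted p = 0.00012) was apart in 13 of 14 analyses, all but that without the TRAIL array. POLE2, a subunit of DNA polymerase epsilon, had 2078 and 2054 with taurolidine, against 3410.4 and 3885 without it and changed by -0.81 ± 0.09 (adjusted p = 0.00066), against 0.07 and 0.14, apart in 8 of 14, not without the TRAIL or the taurolidine plus TRAIL array. ATG16L1, which places the lipid mark of autophagosomes, had 285 and 239.8 with taurolidine, against 859 and 750.1 without it and changed by -1.57 ± 0.12 (adjusted p = 0.00014), against -0.57 and -0.67, apart in 5 of 14, not without the untreated, TRAIL or taurolidine plus TRAIL array.

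Stronger rises in A-204 were few, 10 genes, of which 6 were above 2 times the table median on both taurolidine arrays. GDF15, a cytokine of the TGF-beta family made by stressed cells, had signals of 3008 and 4248 with taurolidine, against 809 and 673 without it in A-204, while SK-LMS-1 had 148 and 222 with taurolidine, against 127 and 122 without it and VA-ES-BJ 28234 and 26371 with taurolidine, against 16987 and 18182 without it. It rose in A-204 by 2.26 ± 0.22 (adjusted p = 0.00031), and the changes of 0.50 and 0.63 in the other lines did not pass, although VA-ES-BJ had the brightest GDF15 throughout. CCN2, a matricellular growth factor and a target of TGF-beta and of YAP with TEAD, had 2063 and 1906 with taurolidine, against 409 and 332 without it in A-204, while SK-LMS-1 had 34857 and 33966 with taurolidine, against 18958 and 18043 without it and VA-ES-BJ 45248 and 43142 with taurolidine, against 36468 and 56828 without it. A-204 was the dimmest line for CCN2 on every array and had the largest rise, 2.39 ± 0.20 (adjusted p = 0.00018), against 0.90 and -0.04.

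GDF15 was apart in 7 of 14 analyses, not without the untreated, TRAIL or taurolidine plus TRAIL array, and CCN2 in 5 of 14, not without any 1 of the A-204 arrays. H2AC6, a histone gene of the H2A family, had 3921 and 3793 with taurolidine, against 1874 and 1903 without it in A-204 and rose by 1.03 ± 0.08 (adjusted p = 0.00017), against 0.23 and 0.15, apart in 8 of 14, not without the untreated, TRAIL or taurolidine plus TRAIL array. BIRC5, which encodes the mitotic inhibitor of apoptosis survivin, had 16105 and 16386 with taurolidine, against 9211 and 9738 without it and rose by 0.78 ± 0.10 (adjusted p = 0.0011), against 0.03 and -0.14, apart in 5 of 14, not without any 1 of the A-204 arrays. Its change was 0.05 with the spike scaling.

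**Figure D4:**
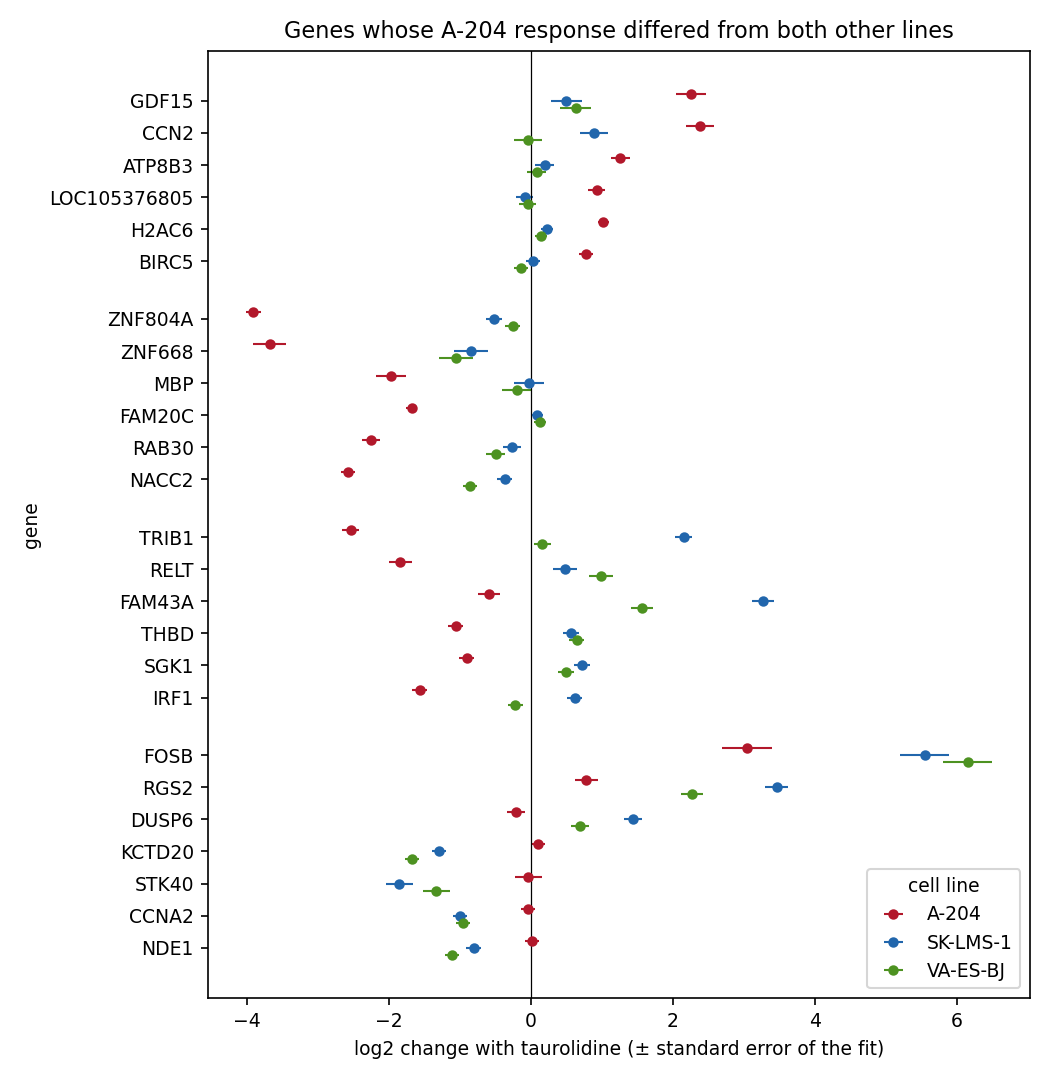
Log2 change with taurolidine in A-204 (red), SK-LMS-1 (blue) and VA-ES-BJ (green) for 25 genes whose A-204 response differed from both other lines. Points are fitted changes over 2 arrays with and 2 without taurolidine, bars the standard error, and the blocks from the top are stronger rises, deeper falls, opposite responses and smaller responses in A-204, where TRIB1 stands at -2.54 for A-204 and at 2.15 for SK-LMS-1.

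The last of the stronger rises with bright signals were ATP8B3, a lipid flippase, with 3027 and 2685 with taurolidine, against 1203 and 1159.7 without it in A-204, and the uncharacterised LOC105376805, with 2330.1 and 2839 with taurolidine, against 1278 and 1415 without it. ATP8B3 rose by 1.26 ± 0.13 (adjusted p = 0.00046), against 0.20 and 0.08, apart in 5 of 14, but its other probe set gave 0.01, and the mean of both came to 0.64 and was not called (adjusted p = 0.17). LOC105376805 rose by 0.93 ± 0.12 (adjusted p = 0.0011), against -0.09 and -0.04, apart in 7 of 14. ATP8B3 was not apart without any 1 of the A-204 arrays, and LOC105376805 not without the untreated, TRAIL or taurolidine plus TRAIL array.

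Secreted ligands were among the genes set apart. HGF, the ligand of the MET receptor, had 7028 and 7661 with taurolidine, against 11456 and 11651 without it in A-204, while SK-LMS-1 had 1304 and 1225 with taurolidine, against 1202 and 1018 without it and VA-ES-BJ 37359 and 41526 with taurolidine, against 33447 and 35910.0 without it. Its fall of -0.65 ± 0.11 (adjusted p = 0.0039), against 0.19 and 0.18, was apart in 4 of 14, and its dimmer probe sets gave 0.37, 0.42, 0.42 and 0.11. HGF was not apart when any 1 of the A-204 arrays was left out. FGF5, a fibroblast growth factor, had 22.6 and 24.7 with taurolidine, against 11.5 and 7.56 without it in A-204 and 2652 and 2739 with taurolidine, against 5194 and 5887 without it in SK-LMS-1, where it changed by -1.03 ± 0.13 (adjusted p = 0.0022). It lay far under the table median on all 4 A-204 arrays and entered the test through the other lines alone, so its call in A-204 compares dim signals and no size is given for it. That call was lost with a constant of 50, with the spike scaling and for the mean of its probe sets, and FGF5 was apart in 2 of 14 analyses.

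A smaller response in A-204 was seen for 12 genes, 9 that fell and 3 that rose in the other lines, and 4 of them were called in A-204. RGS2, a brake on G protein signalling, had 9329 and 7066 with taurolidine, against 4696 and 4715 without it in A-204, while SK-LMS-1 had 17160.0 and 16810.0 with taurolidine, against 1465 and 1594 without it and VA-ES-BJ 2957 and 3710.0 with taurolidine, against 708 and 647 without it. It was brightest in A-204 without taurolidine and rose least there, by 0.79 ± 0.16 (adjusted p = 0.0073), against 3.46 and 2.27, apart in 9 of 14, not without the untreated or the TRAIL array. DUSP6, the feedback phosphatase of ERK, had 924 and 702 with taurolidine, against 923 and 945 without it in A-204, while SK-LMS-1 had 8702 and 8252 with taurolidine, against 3076 and 3145 without it and VA-ES-BJ 2076 and 2172 with taurolidine, against 1281 and 1336 without it. It rose in both other lines (1.44 and 0.69) and was not called in A-204 (-0.21 ± 0.13, adjusted p = 0.25), apart in 6 of 14, not without the untreated, TRAIL or taurolidine plus TRAIL array. DUSP6 was called lower in A-204 without the taurolidine array (-0.41, adjusted p = 0.026), for the mean of its probe sets (-0.64, adjusted p = 0.0057) and with the spike scaling (-0.93, adjusted p = 0.0020). Leaving out 1 array moved the change between -0.41 and -0.016, and the other probe sets gave -0.25 and -1.45.

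KCTD20, of the KCTD family, had 5019 and 5052 with taurolidine, against 4638 and 4769 without it in A-204, while SK-LMS-1 had 1260.5 and 1266 with taurolidine, against 3132 and 3064 without it and VA-ES-BJ 1121 and 1324 with taurolidine, against 3780.4 and 4055 without it. The A-204 arms lay close together while the signal fell in the other lines, at -1.29 and -1.67. The change in A-204 was 0.10 ± 0.10 (adjusted p = 0.50), and -0.63 with the spike scaling, the 1 analysis of 14 in which KCTD20 was not apart. CCNA2, the cyclin of S phase and G2, had 7780.0 and 7600.2 with taurolidine, against 8109 and 7625 without it in A-204, while SK-LMS-1 had 4749.5 and 4843 with taurolidine, against 9372 and 9839 without it and VA-ES-BJ 4197 and 3626 with taurolidine, against 7826 and 7338 without it. It fell in both other lines (-1.0 and -0.96) and changed by -0.03 ± 0.10 (adjusted p = 0.84) in A-204, where a second probe set gave -0.50, and it was apart in 7 of 14, not without the untreated, TRAIL or taurolidine plus TRAIL array.

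STK40, a pseudokinase, changed by -0.03 ± 0.19 (adjusted p = 0.91) in A-204, against -1.85 and -1.33, and NDE1, a dynein regulator, by 0.02 ± 0.10 (adjusted p = 0.93), against -0.80 and -1.11, apart in 3 and 4 of 14 and in none without 1 of the A-204 arrays. The mean of all NDE1 probe sets changed by -0.66 in A-204. FZD7, a Wnt receptor, had 400.2 and 411 with taurolidine, against 408 and 366 without it in A-204, while SK-LMS-1 had 1338 and 1454 with taurolidine, against 2314 and 2142 without it and VA-ES-BJ 1426 and 1363 with taurolidine, against 2469 and 2350.3 without it. It fell in the other lines (-0.67 and -0.78) and changed by 0.07 ± 0.10 (adjusted p = 0.63) in A-204, or -0.64 with the spike scaling, apart in 5 of 14 and in none without 1 of the A-204 arrays.

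Among 27 genes of mitosis and G2/M A-204 had a median change of 0.12, against -0.26 for SK-LMS-1 and -0.61 for VA-ES-BJ, with 4 called higher (14.8%) and 5 lower (18.5%) in A-204, close to the 13.0% and 19.7% of all genes, and -0.61 in A-204 with the spike scaling. AURKA, a spindle kinase, changed by -0.69 ± 0.14 in A-204 and TTK, a checkpoint kinase, by -0.77 ± 0.10, against -0.71 and -0.53 in SK-LMS-1. AURKA was not called with the A-204 arrays alone. CCNB2, a mitotic cyclin, had 13058 and 13282 with taurolidine, against 9052 and 9464 without it in A-204 and rose by 0.51 ± 0.08 (adjusted p = 0.0023), against -0.05 for SK-LMS-1 and -0.50 for VA-ES-BJ. It was apart in 3 of 14 analyses, not without any 1 of the A-204 arrays, and its change turned to -0.22 with the spike scaling. The mean of its probe sets was not called (0.35, adjusted p = 0.23). Of 17 G1 cyclins and inhibitors 3 were called higher (17.6%) and 5 lower (29.4%), and E2F3, an activator of S phase genes, changed by -2.10 ± 0.21, against -1.29 and -2.44.

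Of 22 genes of the integrated stress response, the program of ATF4, 7 were called higher (31.8%) and 8 lower (36.4%), against 13.0% and 19.7% of all genes. PPP1R15A, the phosphatase subunit that restores translation, had 6965 and 4918 with taurolidine, against 1200.5 and 1066 without it and rose by 2.36 ± 0.17 (adjusted p = 0.00011), against 1.68 and 2.20 in the other lines. SESN2, a stress-induced inhibitor of mTORC1 and also a p53 target, had 186 and 236 with taurolidine, against 948 and 923 without it and changed by -2.10 ± 0.18 (adjusted p = 0.00020), against -0.96 and -1.54. Of 18 endoplasmic reticulum chaperone genes 8 were called higher (44.4%) and 2 lower (11.1%), 2 and 1 with the A-204 arrays alone. DNAJB9, a chaperone cofactor, rose by 1.02 ± 0.12 and HERPUD1, of protein degradation at that membrane, changed by -1.13 ± 0.12. Among 20 heat shock genes 5 were called higher (25.0%) and 2 lower (10.0%). HSPA6, an inducible HSP70, had 3927 and 2951 with taurolidine, against 586 and 534 without it in A-204 and 21598 and 22206 with taurolidine, against 205 and 55.0 without it in SK-LMS-1. Its rise of 2.58 ± 0.56 (adjusted p = 0.011) was smaller than the 7.51 of SK-LMS-1 (adjusted p = 0.031 for the difference), and it was not called without the taurolidine array (adjusted p = 0.054) or the TRAIL array (0.053).

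Of 20 p53 targets 5 were called higher (25.0%) and 8 lower (40%), against 13.0% and 19.7% of all genes. PPM1D, the phosphatase that shuts p53 off, had 676 and 557 with taurolidine, against 2709 and 2770.3 without it and fell in A-204 with a change of -2.14 ± 0.19 (adjusted p = 0.00024), against -1.71 and -1.91. In the pathway of the NRF2 factor 6 of 22 were called higher (27.3%) and 5 lower (22.7%). NFE2L2, which encodes NRF2, changed by -0.83 ± 0.11, and its repressor KEAP1 by -1.44 ± 0.15.

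The death machinery that TRAIL uses was measured in the same arrays. FADD, the adaptor that ties death receptors to caspase 8, had signals of 1033 and 798 with taurolidine, against 5536 and 5700.5 without it in A-204. It was 6.12-fold lower (-2.61 ± 0.14, adjusted p = 5.6e-05), against -2.34 for SK-LMS-1 and -1.99 for VA-ES-BJ, and neither difference passed. CASP8, the initiator caspase, had 1109.8 and 983 with taurolidine, against 1790.1 and 2041 without it and changed by -0.86 ± 0.18 (adjusted p = 0.0087), a fall that was not called without the TRAIL array (adjusted p = 0.053) or the taurolidine plus TRAIL array (0.051), nor for the mean of its probe sets (0.19). The receptor genes TNFRSF10A (-0.25 ± 0.35) and TNFRSF10B (0.18 ± 0.13) and CFLAR (-0.08 ± 0.15), the inhibitor of caspase 8, were not called in A-204, and probe sets of all 3 disagreed in sign. APAF1, the scaffold of the apoptosome, changed by -1.22 ± 0.16, but its other probe sets gave -0.62 and 0.85, and their mean, at -0.33, was not called (adjusted p = 0.30). Of 20 genes of the extrinsic pathway 7 were called lower (35.0%) and 4 higher (20%), against 19.7% and 13.0% of all genes.

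In the BCL2 family 3 of 18 were called in each direction (16.7%), close to the 13.0% higher and 19.7% lower of all genes. PMAIP1, which encodes the death effector NOXA, had 2656 and 2498 with taurolidine, against 1167 and 1071 without it and rose by 1.20 ± 0.09 (adjusted p = 0.00014), with 1.20 and 1.09 in the other lines. BCL2L1, which encodes the survival protein BCL-XL, had 1229.9 and 681 with taurolidine, against 2929 and 2909 without it in A-204. Its brightest probe set changed by -1.66 ± 0.24 there (adjusted p = 0.0019), against -0.06 for SK-LMS-1 and -0.42 for VA-ES-BJ. The other probe sets gave -1.30 and -1.15 for A-204, but -1.38 and -1.47 for VA-ES-BJ, where the fall was thus no smaller. For SK-LMS-1 the same probe sets gave -0.41 and -0.40. The BCL2L1 difference did not pass from SK-LMS-1 (adjusted p = 0.062) or VA-ES-BJ (0.10). With the A-204 arrays alone the BCL2L1 fall had an adjusted p of 0.050, just over the threshold. MCL1, a survival protein of short half-life, had 9407 and 9995 with taurolidine, against 10426 and 10769 without it in A-204 and was not called (-0.13 ± 0.12), although it fell in SK-LMS-1 (-1.11), a difference with adjusted p = 0.036. It was called lower in A-204 with the spike scaling, and 2 of its other probe sets gave -0.50 and -0.75.

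Of 10 genes of the MYC network 4 were called lower (40%) and none higher, against 19.7% and 13.0% of all genes, with a median of -0.65. For the mean of a gene's probe sets it was 1 lower and 1 higher, with a median of -0.32. MYC itself had 3891 and 5257 with taurolidine, against 10577 and 10723 without it and changed by -1.23 ± 0.16 (adjusted p = 0.0011), against -0.48 for SK-LMS-1 and -1.40 for VA-ES-BJ. Of 23 TGF-beta, BMP and SMAD targets 9 were called lower (39.1%) and 3 higher (13.0%), CCN2 and SNAI1 among the higher, and of 16 Wnt and Hippo targets 8 lower (50.0%) and 1 higher (6.25%), CCN2. SMAD7, the feedback inhibitor of TGF-beta signalling, had 27.9 and 13.1 with taurolidine, against 121 and 131 without it and was called lower. All 4 signals lay under the table median and SMAD7 entered the test through the other lines alone, so no size is given for A-204, while the change was -2.05 for SK-LMS-1 and -3.72 for VA-ES-BJ. AXIN2, the feedback inhibitor of Wnt signalling, had 142 and 145 with taurolidine, against 627 and 603 without it and changed by -2.01 ± 0.32 (adjusted p = 0.0029), against -2.35 and -1.62. DKK1, a secreted Wnt antagonist, had 2838 and 1641 with taurolidine, against 8531 and 9062 without it and changed by -2.02 ± 0.35 (adjusted p = 0.0042), against -1.35 for SK-LMS-1 and 0.13 for VA-ES-BJ, where it lay near the table median.

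Of 19 interferon-stimulated genes 5 were called higher (26.3%) and 3 lower (15.8%), against 13.0% and 19.7% of all genes. The lower ones were IFIT1, IFIT2 and IFIT3, antiviral proteins that bind foreign RNA. IFIT3 had 3498 and 2978 with taurolidine, against 10962 and 10928 without it in A-204 and changed by -1.76 ± 0.13 (adjusted p = 0.00012), against -0.34 in SK-LMS-1 (adjusted p = 0.015 for the difference) and -0.93 in VA-ES-BJ (0.060). IFIT1 and IFIT2 changed by -1.21 ± 0.20 and -0.97 ± 0.15. IL6, an inflammatory cytokine, had 649 and 757 with taurolidine, against 162 and 245 without it and rose by 1.75 ± 0.21 (adjusted p = 0.00074), against 1.70 for SK-LMS-1 and 0.56 for VA-ES-BJ. PTGS2, the inducible cyclooxygenase, had 358 and 324 with taurolidine, against 53 and 79.3 without it and rose by 2.20 ± 0.18 (adjusted p = 0.00017). Among NF-kB targets overall 3 of 21 were called higher (14.3%) and 4 lower (19%), close to the shares over all genes.

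In oxidative phosphorylation 20 of 27 genes were called higher (74.1%) and none lower, against 13.0% and 19.7% of all genes, with a median of 0.52. It was 11 of 27 with equal array medians, 10 with quantile normalisation, 9 with the A-204 arrays alone and 6 without the untreated array, and with the spike scaling the median turned to -0.21 with none called higher. NDUFA2, a subunit of complex I, had 11359 and 11431 with taurolidine, against 6659.7 and 6802 without it and rose by 0.76 ± 0.08 (adjusted p = 0.00055), although the mean of its probe sets was not called (adjusted p = 0.11). Of 25 proteasome subunits 10 were called higher (40%) and 1 lower (4.0%), so most did not pass in either direction. Quantile normalisation gave 3 and 2, equal array medians 4 and 1, the A-204 arrays alone 2 and 0 and the spike scaling 0 and 6. PSMB3, a subunit of the core particle, had 34329 and 34960.0 with taurolidine, against 20506 and 22920.0 without it and rose by 0.68 ± 0.12 (adjusted p = 0.0048), which turned to -0.05 with the spike scaling. Replication-dependent histones, whose transcripts carry no poly-A tail in cycling cells, were called higher in 10 of 16 (62.5%) and lower in none. Their A-204 median of 0.80 stayed above 0, at 0.08, with the spike scaling. The other medians were 0.58 for SK-LMS-1 and 0.39 for VA-ES-BJ. H3C2 had 368 and 391 with taurolidine, against 109 and 58.9 without it and rose by 2.08 ± 0.33 (adjusted p = 0.0028). Of 17 cytosolic ribosomal protein genes limma called 0 in A-204, and 1 higher with a mean-variance trend, with a median of 0.25 that came to 0.00 with quantile normalisation and -0.47 with the spike scaling.

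Subunits of SWI/SNF were called lower in 3 of 18 (16.7%), below the 19.7% of all genes, and higher in none (13.0% of all genes). ARID2, a subunit of the PBAF form, had 141 and 299.7 with taurolidine, against 876 and 781 without it and changed by -1.94 ± 0.33 (adjusted p = 0.0037), against -1.89 and -1.66, and ARID1A, of the BAF form, had 3952 and 3051 with taurolidine, against 7838 and 7975 without it and changed by -1.18 ± 0.23 (adjusted p = 0.0067). ARID2 was not called with the A-204 arrays alone (adjusted p = 0.053). Oncofetal and embryonal genes were called lower in 4 of 15 (26.7%) and higher in 1 (6.67%), against 19.7% and 13.0% of all genes, and in 2 and 0 for the mean of a gene's probe sets. HMGA2, a chromatin protein of embryonic tissue, had 2022 and 2230.4 with taurolidine, against 8272 and 9139 without it in A-204 and changed by -2.03 ± 0.14 (adjusted p = 9.4e-05), against -2.59 for SK-LMS-1 and -0.10 for VA-ES-BJ, and its difference from VA-ES-BJ passed (adjusted p = 0.0095). The average of its probe sets changed by -0.19 and was not called. IGF2BP3, an oncofetal RNA-binding protein, had 5908 and 5321 with taurolidine, against 14014 and 13763 without it and changed by -1.31 ± 0.09 (adjusted p = 0.00010).

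Markers of other cell types were also summed. The 12 smooth muscle genes came to 63418 and 65993 with taurolidine, against 46981 and 48627 without it. Of the 11 tested, 4 were called higher (36.4%) and none lower, against 13.0% and 19.7% of all genes, with a median of 0.41 that turned to -0.32 with the spike scaling. TPM2 held the largest part of the rise in that sum, with 25740 and 27770 with taurolidine, against 17310 and 17050 without it. The 13 epithelial genes came to 26784 and 21147, against 19264 and 18405, and the 12 neural genes to 45601 and 46799, against 47313 and 48072. TUBB3 made up most of each neural sum, with 32110 and 33900 with taurolidine, against 34260 and 35620 without it. In these lists 1 smooth muscle, 6 epithelial and 5 neural genes stood at or below the table median on all 4 arrays, and 8, 6 and 6 were above 2 times it in untreated cells. The 10 leukocyte genes came to 2491 and 2553 with taurolidine, against 1931 and 1994 without it, the 5 erythroid genes to 463 and 635, against 518 and 226, and the 10 endothelial genes to 3898 and 3694, against 3300.1 and 3369. Of these 6 of 10 leukocyte, 2 of 5 erythroid and 6 of 10 endothelial genes stood at or below the table median on all 4 arrays, and 1, 0 and 3 were above 2 times it in untreated cells. CORO1A made up most of each leukocyte sum, with 1866 and 1803 with taurolidine, against 1397 and 1425 without it. The part of these lists in the results was not tested.

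Genes called lower spanned more of the genome than genes called higher. The median genomic span in RefSeq was 41.1 kb for genes called lower in A-204 and 16.4 kb for genes called higher, against 28.5 kb for all genes tested, with a span known for 99.9% of them. In SK-LMS-1 the medians were 36.0 and 12.6 kb, and in VA-ES-BJ 38.8 and 14 kb. Among genes apart from both lines the median was 52.9 kb for those with a fall in A-204 and 15.5 kb for those with a rise. These are descriptions over genes, without a test. A low signal for a gene cannot be divided into fewer cells making its transcript and less transcript per cell.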

How the data were processed

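Messenger RNA was measured on 12 single-colour Affymetrix arrays. The authors deposited linear intensity values per probe set, made with MAS5 per the submitters' processing notes (version not given in the sources used here), and on the values each array has a trimmed mean of about 1000. Cells grew in 6-well plates for 24 h before the drugs, per the labels' protocols.

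Of 54675 probe sets, 41097 carried 1 gene symbol, 1801 several and 11777 none, and 62 controls were left out. Signals were taken as log2(value + 11.8), so changes of dim genes are understated. Probe sets had to exceed the table median on at least 3 arrays, and the brightest stood for its gene. limma 3.58.1 (R 4.3.3) fitted 6 means of line and taurolidine over 12 arrays, with 6 residual degrees of freedom, Benjamini-Hochberg adjustment and a threshold of 0.05. A gene stood apart when A-204 differed from each other line, 1 way. The model was also run on simulated data with independent noise and few changed genes, all of them in A-204. The real arrays hold many calls in every line, so that run does not give the error rate here. TRAIL was not a block, because the comparison pools over TRAIL within each arm. Deviations of arrays of like TRAIL status correlated at -0.009, 0.022 and 0.006, which describes all genes together and not single genes.

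Named genes were those with the largest called changes, the largest differences of each kind from both lines, the most changed members of each gene list, and 8 genes of TRAIL signalling and chromatin. Members, lists and rules were chosen with earlier results of these data known. Alternatives covered the added constant, filter, scaling, probe set choice, variance trend, A-204 alone, a TRAIL term and each array left out. The number of arrays limits the precision.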

Additional observations from a re-analysis of the deposited data

Results flagged for a closer look

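The taurolidine response differed between A-204 and each other line by the test of the difference for the genes below, in each case with an adjusted p under 0.05 against both lines. Values are the A-204 change minus that of the line with the nearer change, on the log2 scale. Each value is that of the gene's brightest probe set, and the dimmer probe sets of DUSP16 fell more in VA-ES-BJ than in A-204. The stability of the genes over the alternative analyses is given with each gene in the results.

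Genes with opposite calls between lines were TRIB1 (-2.70), RELT (-2.31), FAM43A (-2.15), THBD (-1.62), SGK1 (-1.40), IRF1 (-1.34), CCNE1 (-1.34), CEBPB (-0.94) and CCNB2 (0.56). Deeper falls in A-204 were those of ZNF804A (-3.39), ZNF668 (-2.62), FAM20C (-1.77), MBP (-1.77), RAB30 (-1.76), NACC2 (-1.73), TP53INP1 (-1.72), DNMBP (-1.23), RIN3 (-1.16), PTCH1 (-1.16), KLHL22 (-0.95), ATG16L1 (-0.90), POLE2 (-0.88), HGF (-0.84) and DUSP16 (-0.68). Stronger rises were those of GDF15 (1.62), CCN2 (1.5), ATP8B3 (1.07), LOC105376805 (0.97), H2AC6 (0.80) and BIRC5 (0.75). A smaller response in A-204 gave FOSB (-2.51), RGS2 (-1.48) and DUSP6 (-0.91), which rose elsewhere, and KCTD20 (1.38), STK40 (1.30), CCNA2 (0.92), NDE1 (0.82) and FZD7 (0.74), which fell elsewhere. ZSCAN16 (2.64) and FGF5 (0.95) also passed, but both lay under the table median on all 4 A-204 arrays and entered the test through the other lines alone, so these 2 values rest on dim signals. The gap was widest for ZNF804A among the genes listed.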

How the results depend on the processing

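The 4648 genes called in A-204 came to 7435 with spike scaling and 2492 with the A-204 arrays alone, and to 2843 to 3732 without 1 array. The 1844 higher became 1136 with equal array medians, 73 with spike scaling, 747 with A-204 alone and 939 to 1217 without 1 array, and the 2804 lower 7362, 1745 (spike scaling, A-204 alone) and 1904 to 2515. Of all calls 39.7% were higher, against 47.4% with quantile normalisation, 31.8% with equal medians and 0.982% with spike scaling. The 297 differences from SK-LMS-1, the 422 from VA-ES-BJ and the 121 genes apart from both became 91, 73 and 19 without the filter, where 19775 genes were tested, and 478, 708 and 197 with a filter at 2 times the median. They became 147, 116 and 35 with equal medians, 141, 45 and 20 with spike scaling, 129, 202 and 44 with the mean of probe sets, and 735, 949 and 332 with a variance trend. With the TRAIL term as replicate block they became 123, 187 and 31. Without 1 array they ran from 60 to 463, 68 to 545 and 22 to 228. The cause of these shifts was not tested. No count fell outside 1.5 times its main value with another added constant.

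Directions in A-204 were compared for named genes called in the main analysis or in the alternative. Those that turned with spike scaling were CCNB2 (-0.22), FZD7 (-0.64), KCTD20 (-0.63), NDE1 (-0.71), PSMB3 (-0.050) and TNNT1 (-0.035). With the mean of probe sets HGF turned to 0.13 and NDE1 to -0.66, and the NDE1 difference from the nearer line to -0.087. Over all named genes and alternatives 1781 single-gene results either kept their direction and call or stayed without a call. A direction that turned without a call in either analysis is among these. A further 247 lost the call, 8 gained one and 9 reversed.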

Other observations

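Of the genes that stood apart from both lines in at least 13 of 14 alternative analyses, 3 lay outside the rule for named genes and were chosen after their values were seen. ZSCAN16, a SCAN domain zinc finger gene, had signals of 94.0 and 95.3 with taurolidine, against 7.6 and 11.7 without it in A-204, 400.0 and 482 with taurolidine, against 552 and 549 without it in SK-LMS-1 and 609.7 and 485 with taurolidine, against 688 and 677 without it in VA-ES-BJ. Its signal in A-204 lay under the table median on all 4 arrays, and it entered the test through the other lines alone. Its call in A-204, and its being apart in 14 of 14 analyses, thus rest on dim signals, and no size is given for the change. In the other lines it was not called.

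RIN3, an exchange factor of endosomal RAB proteins, had 843 and 833 with taurolidine, against 2961 and 2877 without it in A-204 and changed by -1.79 ± 0.08 (adjusted p = 4.5e-05), against -0.36 and -0.62, apart in all analyses but the mean of its probe sets. DNMBP, an exchange factor for the GTPase CDC42, had 1277 and 1066 with taurolidine, against 3082 and 3272 without it in A-204 and changed by -1.44 ± 0.11 (adjusted p = 0.00013), against -0.20 and -0.08, apart in all but that without the TRAIL array. PTCH1, the Hedgehog receptor and itself a Hedgehog target, was likewise picked by its values, with 1763 and 1815 with taurolidine, against 6255 and 6456 without it in A-204, 120.4 and 135 with taurolidine, against 148 and 176 without it in SK-LMS-1 and 448 and 448 with taurolidine, against 711 and 720.4 without it in VA-ES-BJ. It changed by -1.82 ± 0.10 (adjusted p = 6.0e-05), against -0.31 and -0.66, and was apart in 11 of 14, not without the TRAIL array.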
